A study of Homo sapiens with 6 samples.

Results

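Urea cycle and hepatic amino acid enzymes are described here across HepG2-hCAR cells given doxycycline or vehicle. The genes were chosen by name: CPS1, ASS1, ASL, ARG1 and ARG2 of the urea cycle and its arginases, GLUL and GLUD1 of glutamine and glutamate metabolism, and TAT of tyrosine breakdown. Of these 8 genes, 7 were found among the 11456 genes of the series, and ARG1 was not analysed here. Messenger RNA was sequenced in 6 libraries, 3 from cells given doxycycline at 1 µg/ml and 3 from cells given vehicle, all taken at 72 h. HepG2-hCAR is a single clone of HepG2, a human liver carcinoma line, isolated under puromycin. The cells of both groups carry, on a lentiviral vector, a human NR1I3 cDNA that doxycycline switches on. NR1I3 encodes the constitutive androstane receptor (CAR), a nuclear receptor of hepatocytes. All doxycycline libraries are from cells with this vector, so the antibiotic and the receptor cannot be told apart. Separate cultures are not stated for libraries of the same group, and the p-values measure the spread between these libraries, which may be technical.

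The liver disposes of ammonia in a pair of ways. The urea cycle joins ammonia and bicarbonate to carbamoyl phosphate in mitochondria (CPS1, switched on by the product of NAGS), passes it to ornithine (OTC), adds aspartate to citrulline (ASS1), splits the product into arginine and fumarate (ASL), and releases urea and ornithine (ARG1, the liver arginase, with ARG2 as the mitochondrial form of other tissues). Glutamine synthetase (GLUL), made in hepatocytes around the central vein, instead fixes ammonia on glutamate. Glutamate dehydrogenase (GLUD1) interconverts glutamate with ammonia and oxoglutarate, and TAT, tyrosine aminotransferase, starts the breakdown of tyrosine and is a classic glucocorticoid-induced liver gene.

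Levels are given in FPKM, a unit per length of transcript and per mapped fragment of the library, so that genes can be compared with each other. They summed to 204318 to 209372 per library, and the sequencing depth is unknown. NR1I3 had 331, 317 and 316 FPKM with doxycycline, against 3.15, 3.01 and 3.56 FPKM with vehicle. Of 8 hepatocyte markers, 6 were called lower with doxycycline, beside 13.6% of all genes tested. The summed level of the 8 was 708 to 733 FPKM in doxycycline libraries and 1420 to 1562 FPKM in vehicle libraries. APOB, the structural protein of lipoproteins, had 464, 472 and 396 FPKM with doxycycline, against 847, 804 and 808 FPKM with vehicle. ALB, the gene of serum albumin and the defining marker, was low for a liver cell in both groups. It was at 0.387, 0.461 and 0.272 FPKM with doxycycline and 1.77, 1.90 and 1.93 FPKM with vehicle. Listing needed a mean of 0.5 FPKM in at least 1 group, which ALB reached with vehicle only. The mean of 1 FPKM needed for the test was also reached by ALB only through its vehicle level. Its call, 1 of the 6, thus rests on the group where it was high. Of 6 fibroblast markers 2 were analysed, with a summed level of 16.9 to 18.3 FPKM with doxycycline and 19.1 to 20.2 FPKM with vehicle. ACTA2 was called lower. PDGFRB, at 1.43 ± 0.0327 FPKM with doxycycline and 0.856 ± 0.0957 FPKM with vehicle, was called higher. PDGFRB reached the mean of 1 FPKM needed for the test only through its doxycycline level. Of 5 leukocyte markers 3 were analysed, and their sum, 263 to 277 FPKM with doxycycline and 544 to 586 FPKM with vehicle, was nearly all LYZ, the lysozyme gene. LYZ and CD68 were called lower, while CD14, under the filter on low values, was at 1.85 to 2.00 FPKM with doxycycline and 0.0347 to 0.0853 FPKM with vehicle. CD14 reached the level needed for listing with doxycycline only. The 3 analysed bile duct markers of 4 summed to 264 to 267 FPKM with doxycycline and 239 to 248 FPKM with vehicle, with KRT19 called higher and EPCAM and SOX9 lower, and none of the 4 endothelial markers was analysed here. These marker levels move with the same comparison as the enzymes below, and their part in the results was not tested. In bulk RNA, fewer cells of a type and less RNA per cell cannot be told apart.

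Of the 7 enzymes found, 5 had a mean of at least 1 FPKM and were tested with limma on log2(FPKM + 1), with Benjamini-Hochberg adjustment over all 10469 genes tested and a call at an adjusted p below 0.05. ASS1, ASL and GLUD1 fell, ARG2 rose, and GLUL was not called. Calls were common in this comparison: 28.8% of the tested genes passed, 15.2% with a higher and 13.6% with a lower level in doxycycline libraries. The median log2 fold change, doxycycline minus vehicle, was -0.16 over the 5 tested enzymes and 0.01 over all genes tested. CPS1 and TAT, under 1 FPKM, were not in that test. Among the 5 tested enzymes, the libraries of the groups did not overlap for ASS1, ASL, ARG2 and GLUD1 and overlapped for GLUL. Groups did not overlap for 47.1% of all genes tested. Of the untested enzymes, CPS1 overlapped and TAT did not, but TAT was listed only through its vehicle level.

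**Figure D1:**
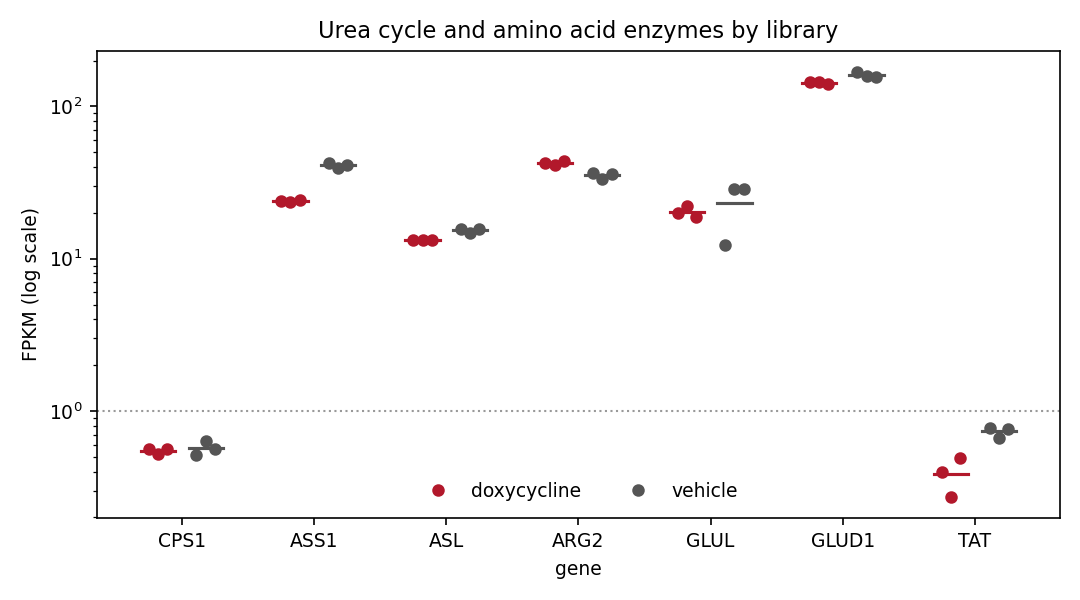
FPKM of each enzyme in each library on a log scale, with doxycycline libraries in red left of vehicle libraries in grey and a bar at each group mean (n = 3 libraries per group). The dotted line marks the 1 FPKM needed for the test; ASS1 was the tested enzyme whose groups stood farthest apart, at 23.9 against 41.0 FPKM.

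Among the enzymes of the cycle itself, ASS1, argininosuccinate synthase, had 24.0, 23.5 and 24.3 FPKM in doxycycline libraries, against 42.2, 39.3 and 41.3 FPKM in vehicle libraries. All 3 doxycycline libraries lay below all 3 vehicle libraries, and the spread within each group was small beside the gap. The mean fell to 23.9 ± 0.359 FPKM with doxycycline, against 41.0 ± 1.48 FPKM with vehicle (SD, n = 3 each), 1.71-fold lower. Its log2 fold change was -0.75 (SE 0.04, limma adjusted p = 5.42e-05), the 193rd most negative of the 1419 genes called lower. Permuting the libraries (exact permutation test of the means, two-sided) gave p = 0.1, the smallest that 3 against 3 libraries allow. ASL, ARG2 and GLUD1 gave the same. On GRCh37, the build of all gene positions given here, ASS1 spans 133320316 to 133376661 of chromosome 9, plus strand. GENCODE 29 names 11 ASS1 pseudogenes, and how the authors' counting divided reads among such copies is not given in the sources used here.

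ASL, argininosuccinate lyase, which takes the product of ASS1, had 13.2 FPKM in each of the 3 doxycycline libraries, against 15.6, 14.8 and 15.6 FPKM in vehicle libraries. The groups did not overlap, but they were close. The mean was 13.2 ± 0.0184 FPKM with doxycycline and 15.3 ± 0.508 FPKM with vehicle, 1.16-fold lower (log2 fold change -0.20, SE 0.04, limma adjusted p = 0.00866). ASL (chromosome 7, 65540785 to 65558545, plus strand) overlaps over 5798 bases, on the same strand, the entry AC068533.4, which averaged 0.715 ± 0.0912 FPKM with doxycycline and 0.722 ± 0.727 FPKM with vehicle. Because ASS1 fell more than ASL, the ratio of ASS1 to ASL within a library was 1.82, 1.78 and 1.84 with doxycycline, against 2.70, 2.67 and 2.65 with vehicle. This ratio was chosen after the values were seen and was not tested.

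ARG2, the mitochondrial arginase, rose. It had 42.8, 41.6 and 44.0 FPKM in doxycycline libraries, against 36.7, 33.2 and 35.9 FPKM in vehicle libraries. Each doxycycline library was above each vehicle library. The mean was 42.8 ± 1.25 FPKM with doxycycline and 35.2 ± 1.83 FPKM with vehicle, 1.21-fold higher (log2 fold change 0.27, SE 0.05, limma adjusted p = 0.00691), which ranks 1019th of the 1593 genes called higher. ARG2 (chromosome 14, 68086515 to 68118437, plus strand) shares 4646 bases with VTI1B on the opposite strand. The ratio of ARG2 to ASS1 was 1.79, 1.77 and 1.82 with doxycycline, against 0.868, 0.843 and 0.868 with vehicle, so the order of these 2 transcripts was turned round; this ratio too was chosen after the values were seen and was not tested.

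CPS1, carbamoyl phosphate synthetase of the mitochondrion and the entry to the cycle, was near the bottom of the listed genes in both groups. It had 0.563, 0.523 and 0.564 FPKM in doxycycline libraries, against 0.512, 0.633 and 0.565 FPKM in vehicle libraries. The groups overlapped throughout, and the level was at percentile 2.43 of all listed genes with doxycycline and 2.81 with vehicle. Tested without the filter on low values, its log2 fold change was -0.02 (limma adjusted p = 0.827). CPS1 lies on chromosome 2 at 211342406 to 211543831 on the plus strand.

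The 250 bases before the transcription start of ASS1 and ASL, which fell, and of ARG2, which rose, are shown because the 3 genes act one after the other on the route from citrulline to urea and did not move one way. They are RefSeq sequence of GRCh38.p14, a later build than the GRCh37 of the expression values, and capitals mark matches on either strand to letters searched after the sequences were seen: the E-box is spelled CACGTG, the GC box is spelled GGGCGG, the TATA core is spelled TATAA, the cyclic AMP response element is spelled TGACGTCA, the CCAAT box is spelled by its name, and the core of nuclear receptor sites is spelled AGGTCA.
ASS1: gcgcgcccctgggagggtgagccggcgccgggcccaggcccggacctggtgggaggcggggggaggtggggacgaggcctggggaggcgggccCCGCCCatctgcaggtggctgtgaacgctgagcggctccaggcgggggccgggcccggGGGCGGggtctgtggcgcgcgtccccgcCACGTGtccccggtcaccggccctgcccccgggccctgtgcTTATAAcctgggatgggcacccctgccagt
ASL: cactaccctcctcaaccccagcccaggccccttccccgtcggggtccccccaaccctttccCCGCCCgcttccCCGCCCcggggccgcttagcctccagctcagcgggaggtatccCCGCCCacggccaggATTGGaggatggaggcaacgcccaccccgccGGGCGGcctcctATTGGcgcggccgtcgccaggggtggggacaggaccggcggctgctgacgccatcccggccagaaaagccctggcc
ARG2: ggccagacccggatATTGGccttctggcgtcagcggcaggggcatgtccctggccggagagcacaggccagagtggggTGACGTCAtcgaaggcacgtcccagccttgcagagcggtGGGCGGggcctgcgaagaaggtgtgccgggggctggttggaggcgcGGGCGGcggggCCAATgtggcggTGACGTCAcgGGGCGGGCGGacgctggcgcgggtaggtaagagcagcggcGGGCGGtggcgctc
The ASS1 window, chr9:130444711-130444960 on the plus strand, is the downstream of its listed starts. It holds 1 E-box, 2 GC boxes and, inside TTATAA, the TATA core on both strands. The window of the other listed ASS1 start, chr9:130444457-130444706, is not shown and holds 2 GC boxes but no E-box or TATA core. The ASL window, chr7:66075569-66075818 on the plus strand, holds 4 GC boxes and 2 CCAAT boxes. The ARG2 window, chr14:67619670-67619919 on the plus strand, holds 2 cyclic AMP response elements, 2 CCAAT boxes and 5 GC boxes, a pair of which overlap each other. None of the 3 windows shown holds the nuclear receptor core. Among 35116 RefSeq windows of the same length, the E-box was in 6.34%, the GC box in 42.6%, the TATA core in 18.9%, the cyclic AMP response element in 1.65%, the CCAAT box in 32% and the nuclear receptor core in 12.1%. A match describes the letters of a window and not a bound site.

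Other enzymes and carriers of the cycle went both ways. Of 6 further enzymes and carriers, 4 were tested, of which 2 rose and 1 fell, where 28.8% of all tested genes were called. OTC and SLC25A2 were not analysed here. NAGS, which makes the activator of CPS1, rose to 5.92 ± 0.332 FPKM with doxycycline, against 3.51 ± 0.0955 FPKM with vehicle (1.69-fold, limma adjusted p = 5.00e-04). SLC25A15, which carries ornithine into mitochondria, rose to 20.2 ± 0.302 FPKM, against 15.0 ± 0.284 FPKM with vehicle (1.35-fold, limma adjusted p = 3.37e-04). CA5A, the mitochondrial carbonic anhydrase that supplies bicarbonate, fell to 1.08 ± 0.152 FPKM, against 1.91 ± 0.208 FPKM with vehicle (limma adjusted p = 0.00692). SLC25A13, the carrier that brings aspartate out for ASS1, had 24.7 ± 0.0974 FPKM with doxycycline and 28.5 ± 2.31 FPKM with vehicle (limma adjusted p = 0.0527). It was called lower without vehicle replicate 1 (adjusted p = 0.0441), with median-ratio scaling (0.0434), with quantile normalization (0.0432) and with a minimum mean of 5 FPKM (0.0473).

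**Figure D2:**
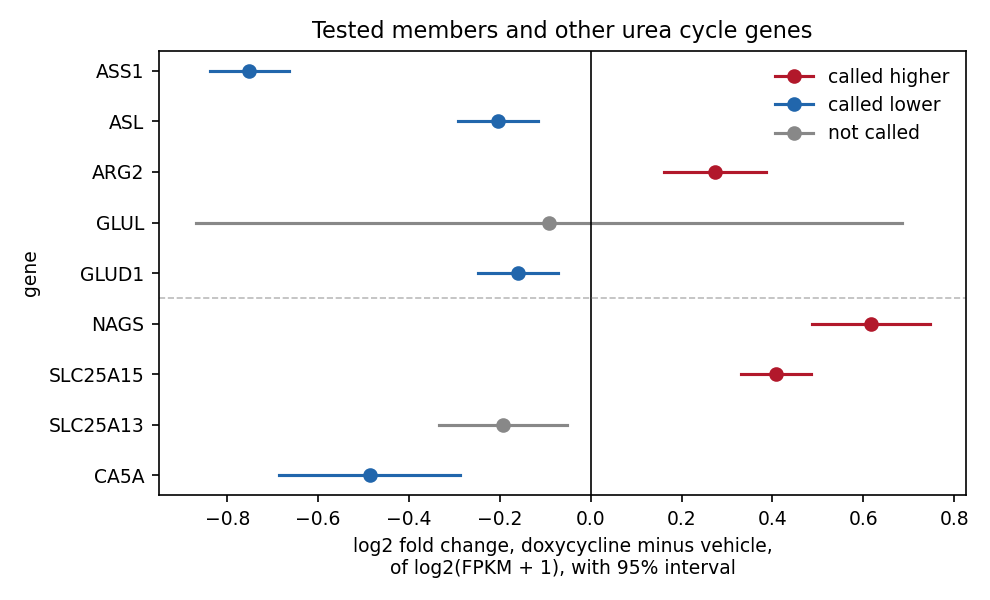
Log2 fold change, doxycycline minus vehicle, of log2(FPKM + 1) with its 95% limma interval, for the 5 tested enzymes above the dashed line and 4 other urea cycle genes below it. Red is called higher, blue called lower and grey not called; the interval of GLUL spans -0.87 to 0.68, while that of ASS1 spans -0.84 to -0.67.

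GLUL, glutamine synthetase, had 20.1, 22.3 and 18.7 FPKM in doxycycline libraries, against 12.3, 28.7 and 28.7 FPKM in vehicle libraries. The doxycycline libraries lay between vehicle replicate 1 and the other vehicle libraries, so the groups overlapped. The mean was 20.4 ± 1.83 FPKM with doxycycline and 23.2 ± 9.44 FPKM with vehicle (log2 fold change -0.09, SE 0.32, limma adjusted p = 0.857). One library decides this value: without vehicle replicate 1 the log2 fold change was -0.48 and GLUL was called lower (limma adjusted p = 0.0135), while without vehicle replicate 2 or 3 it was 0.10 in each case (adjusted p = 0.865 and 0.863). Vehicle replicate 1 was more than 2-fold away from both other vehicle libraries in 95 of the 10469 genes tested, against 74 to 94 genes for each of the other 5 libraries within their own groups. Another such gene is SLC7A2, a transporter of arginine and ornithine, with 4.07, 4.05 and 3.64 FPKM with doxycycline, against 23.3, 5.08 and 4.76 FPKM with vehicle (limma adjusted p = 0.255), chosen after its values were seen. GLUL lies on chromosome 1 at 182350839 to 182361341 on the minus strand, and GENCODE 29 names 4 GLUL pseudogenes.

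The ratio of GLUL to CPS1 sets the mRNA of glutamine synthetase beside that of the entry enzyme of the urea cycle. CPS1 was under 1 FPKM in every library, where the precision of FPKM cannot be stated. The ratio was 35.7, 42.7 and 33.2 with doxycycline, against 24.1, 45.3 and 50.9 with vehicle, the lowest in vehicle replicate 1. The groups overlapped, with a log2 difference of -0.04 and an exact two-sided permutation p of 0.9. The corresponding ratio of the arginases could not be formed, since ARG1 was not analysed here.

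GLUD1, glutamate dehydrogenase, was the most abundant of the enzymes, at percentile 98.8 of all listed genes with doxycycline and 99.0 with vehicle. It had 145, 146 and 141 FPKM in doxycycline libraries, against 168, 158 and 156 FPKM in vehicle libraries. The groups did not overlap, though the lowest vehicle library was close to the highest doxycycline library. The mean fell to 144 ± 2.53 FPKM with doxycycline, against 161 ± 6.81 FPKM with vehicle (1.12-fold lower, log2 fold change -0.16, SE 0.04, limma adjusted p = 0.0209). The call was lost without doxycycline replicate 1 (adjusted p = 0.0551) or 3 (adjusted p = 0.0667), over a range of 0.00667 to 0.0667 across the alternatives. GLUD1 (chromosome 10, 88810243 to 88854623, minus strand) has 5 pseudogenes named in GENCODE 29, and shares 706 bases with FAM35A on the opposite strand. GLUD2, a near-identical copy on another chromosome, was at 0.491 ± 0.0303 FPKM with doxycycline and 0.608 ± 0.0527 FPKM with vehicle. GLUD2 was under the filter and was listed only through its vehicle level.

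TAT, tyrosine aminotransferase, had 0.399, 0.274 and 0.491 FPKM in doxycycline libraries, against 0.768, 0.669 and 0.762 FPKM in vehicle libraries. Every doxycycline library was below every vehicle library, at levels close to the bottom of the table. No gene was listed unless at least 1 group mean reached 0.5 FPKM, and TAT reached that limit with vehicle only, so its listing rests on the group where it was high. For that reason no test of TAT is given. TAT lies on chromosome 16 at 71599563 to 71611033 on the minus strand.

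Set in order of mean FPKM, the enzymes with doxycycline ran GLUD1, ARG2, ASS1, GLUL, ASL, CPS1 and TAT, and no neighbours in that order overlapped between libraries. With vehicle the order was GLUD1, ASS1, ARG2, GLUL, ASL, TAT and CPS1, where only GLUL and ASL overlapped, through vehicle replicate 1. The order of ASS1 and ARG2 and that of CPS1 and TAT differed between the groups; for TAT this rests on a gene listed only through its vehicle level. For ASS1, the 3 genes were picked whose centred log2(FPKM + 1) values over the 6 libraries lay nearest to its own by Euclidean distance. Their likeness to ASS1 follows from that choice and was not tested. These were ACAA1, a peroxisomal thiolase (distance 0.0626), ELOVL2, an elongase of polyunsaturated fatty acids (distance 0.0751), and ALDH18A1, an enzyme of proline and ornithine synthesis (distance 0.0895). ALDH18A1 had 67.0, 66.0 and 67.8 FPKM with doxycycline, against 118, 116 and 113 FPKM with vehicle.

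**Figure D3:**
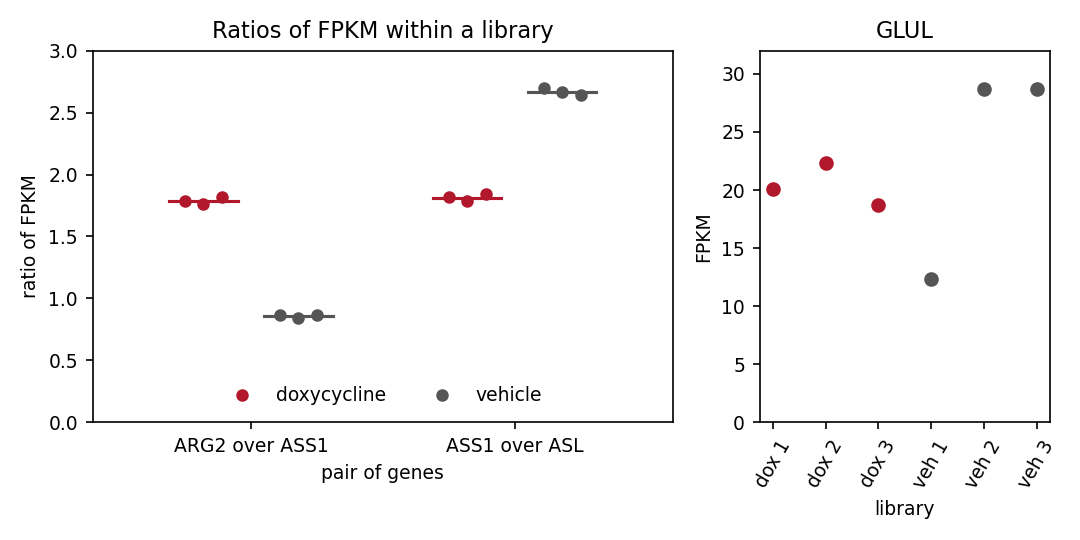
Left, ratios of FPKM within each library, doxycycline in red left of vehicle in grey, with bars at the group means. Right, FPKM of GLUL in each library (dox, doxycycline; veh, vehicle): ARG2 exceeded ASS1 in every doxycycline library and in no vehicle library, and GLUL was at 12.3 FPKM in vehicle replicate 1 against 28.7 FPKM in both other vehicle libraries.

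Around these enzymes, 10 lists of related genes held 149 symbols, of which 115 were tested, and 22 rose and 37 fell, 51.3% in all beside the 28.8% of all tested genes. The shares called in the lists of glutamine amidotransferases (33.3%), methionine and cysteine (35.7%) and branched-chain amino acids (38.9%) were the nearest to that background. Glutamine and glutamate handling had 4 of 10 tested genes higher and 1 lower, with a median log2 fold change of 0.07. The plasma membrane transporters SLC1A5 (116 ± 3.15 FPKM with doxycycline, against 91.7 ± 0.971 FPKM with vehicle) and SLC38A1 (48.6 ± 1.48 FPKM, against 36.4 ± 0.137 FPKM) rose, and so did GOT1, the cytosolic aspartate aminotransferase (101 ± 4.24 FPKM, against 82.8 ± 2.96 FPKM). SLC38A3, a glutamine transporter of hepatocytes, fell to 2.14 ± 0.127 FPKM, against 4.12 ± 0.385 FPKM with vehicle. Of 9 tested glutamine amidotransferases, which spend the amide of glutamine, 2 rose and 1 fell. CTPS1, CTP synthase, rose 1.38-fold to 20.5 ± 0.342 FPKM, against 14.9 ± 0.374 FPKM with vehicle. ASNS, asparagine synthetase, rose to 25.5 ± 3.10 FPKM, against 19.5 ± 1.06 FPKM, a call lost without doxycycline replicate 3 or any 1 vehicle library (limma adjusted p = 0.0517 to 0.0786). CAD, which makes carbamoyl phosphate for pyrimidines, was at 11.1 ± 0.472 FPKM with doxycycline and 12.6 ± 0.532 FPKM with vehicle, a call (limma adjusted p = 0.0472) lost in 8 of 16 alternatives, among them every left-out library.

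Of 20 tested genes of arginine, ornithine, polyamine and proline metabolism, 7 fell and 2 rose, 45% in all beside 28.8% of all tested genes. AGMAT, annotated as agmatinase, fell 1.82-fold to 69.7 ± 2.43 FPKM, against 127 ± 2.11 FPKM with vehicle (limma adjusted p = 2.54e-05). ALDH18A1 fell 1.73-fold, and PRODH2, a dehydrogenase of hydroxyproline breakdown, fell to 2.61 ± 0.271 FPKM, against 4.04 ± 0.238 FPKM. GAMT, the last enzyme of creatine synthesis, was at 11.7 ± 0.874 FPKM with doxycycline and 17.9 ± 3.47 FPKM with vehicle, called lower (limma adjusted p = 0.0294) in all libraries together but not without doxycycline replicate 1, 2 or 3 or vehicle replicate 1 or 3 (0.0524 to 0.0866). OAT, ornithine aminotransferase, which in liver is made beside GLUL, was at 51.9 ± 1.42 FPKM with doxycycline and 52.8 ± 0.813 FPKM with vehicle (adjusted p = 0.579), and was chosen after its values were seen.

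Breakdown of the aromatic amino acids had 5 of 13 tested genes lower and 2 higher, 53.8% in all beside 28.8% of all tested genes. HPD, hydroxyphenylpyruvate dioxygenase, which takes the product of TAT, fell to 64.2 ± 1.94 FPKM with doxycycline, against 108 ± 2.44 FPKM with vehicle (1.68-fold lower, limma adjusted p = 4.22e-05). HGD and FAH, which act later on the same path, were not called: HGD was at 33.3 ± 0.799 FPKM with doxycycline and 32.8 ± 0.829 FPKM with vehicle, and FAH at 6.46 ± 0.0352 FPKM and 7.54 ± 0.588 FPKM (adjusted p = 0.716 for HGD and 0.0532 for FAH), a pair picked with the values in view. DDC, the aromatic amino acid decarboxylase, fell 4.95-fold to 1.77 ± 0.228 FPKM, against 8.77 ± 1.69 FPKM with vehicle. KYNU and AFMID, which act on kynurenines from tryptophan, fell 2.14-fold and 1.47-fold. KYNU, at 0.649 ± 0.0555 FPKM with doxycycline and 1.39 ± 0.191 FPKM with vehicle, reached the mean needed for the test only through its vehicle level. In methionine and cysteine metabolism 3 of 14 tested genes fell and 2 rose, 35.7% in all. BHMT, which remethylates homocysteine with betaine, fell 5.25-fold to 1.51 ± 0.146 FPKM, against 7.91 ± 0.567 FPKM with vehicle (limma adjusted p = 2.64e-05). MAT1A, the methionine adenosyltransferase of adult liver, fell to 13.5 ± 1.22 FPKM, against 32.9 ± 1.32 FPKM, while MAT2A, the form of fetal and growing cells, rose to 56.7 ± 2.25 FPKM, against 43.4 ± 0.580 FPKM. ADO, a thiol dioxygenase, was called higher (13.5 ± 0.656 FPKM with doxycycline and 11.0 ± 1.12 FPKM with vehicle, limma adjusted p = 0.0435), which was lost without doxycycline replicate 1, 2 or 3 or vehicle replicate 1 or 3 (0.0727 to 0.120).

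In the breakdown of glycine, serine, histidine and lysine, 9 of 12 tested genes fell and none rose, with a median log2 fold change of -0.37. That is 75% called, beside 28.8% of all tested genes. GLDC, the decarboxylase of the glycine cleavage system, fell 1.80-fold to 5.43 ± 0.229 FPKM, against 9.77 ± 0.266 FPKM with vehicle. SARDH, sarcosine dehydrogenase, fell to 2.68 ± 0.0192 FPKM, against 5.00 ± 0.239 FPKM. AMDHD1, of histidine breakdown, and AASS, the first enzyme of lysine breakdown, fell 1.63-fold and 1.53-fold. Of 18 tested genes of branched-chain amino acid breakdown 5 fell and 2 rose, 38.9% in all, and 3 fell without doxycycline replicate 1 or 2 or vehicle replicate 1. ACADSB and ALDH6A1, dehydrogenases of isoleucine and valine breakdown, fell 1.58-fold and 1.62-fold, and HIBADH, of valine breakdown, and PCCA, a subunit of propionyl-CoA carboxylase, rose 1.33-fold and 1.41-fold.

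Genes that mark the GLUL zone around the central vein or respond to beta-catenin went both ways, with 4 of 9 tested genes higher and 4 lower. That is 88.9% called, beside 28.8% of all tested genes. SP5, a transcription factor induced by Wnt signals, fell to 20.4 ± 1.69 FPKM, against 43.2 ± 0.790 FPKM with vehicle. RHBG, an ammonia transporter of the same zone, fell to 2.79 ± 0.595 FPKM, against 6.05 ± 0.603 FPKM. TBX3 and NKD1, both Wnt targets, rose 1.37-fold and 1.31-fold. Of 6 tested genes of the glucocorticoid response and the C/EBP factors, which act on TAT and the urea cycle genes in liver, 2 rose and 1 fell, 50% in all. CEBPB rose to 46.8 ± 3.27 FPKM, against 36.4 ± 0.657 FPKM with vehicle (limma adjusted p = 0.00456). The calls of CEBPD (12.3 ± 0.841 FPKM with doxycycline, 14.9 ± 0.504 FPKM with vehicle, adjusted p = 0.0162) and DUSP1 (15.5 ± 1.61 FPKM with doxycycline, 12.5 ± 0.463 FPKM with vehicle, adjusted p = 0.0359) were lost without doxycycline replicate 2 or 3 or vehicle replicate 3 (0.0520 to 0.0532) for CEBPD, and without doxycycline replicate 1 or 3 or any 1 vehicle library (0.0693 to 0.103) for DUSP1. NR3C1, the glucocorticoid receptor, was at 5.17 ± 0.349 FPKM with doxycycline and 4.63 ± 1.33 FPKM with vehicle (adjusted p = 0.558) and was chosen after its values were seen.

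**Figure D4:**
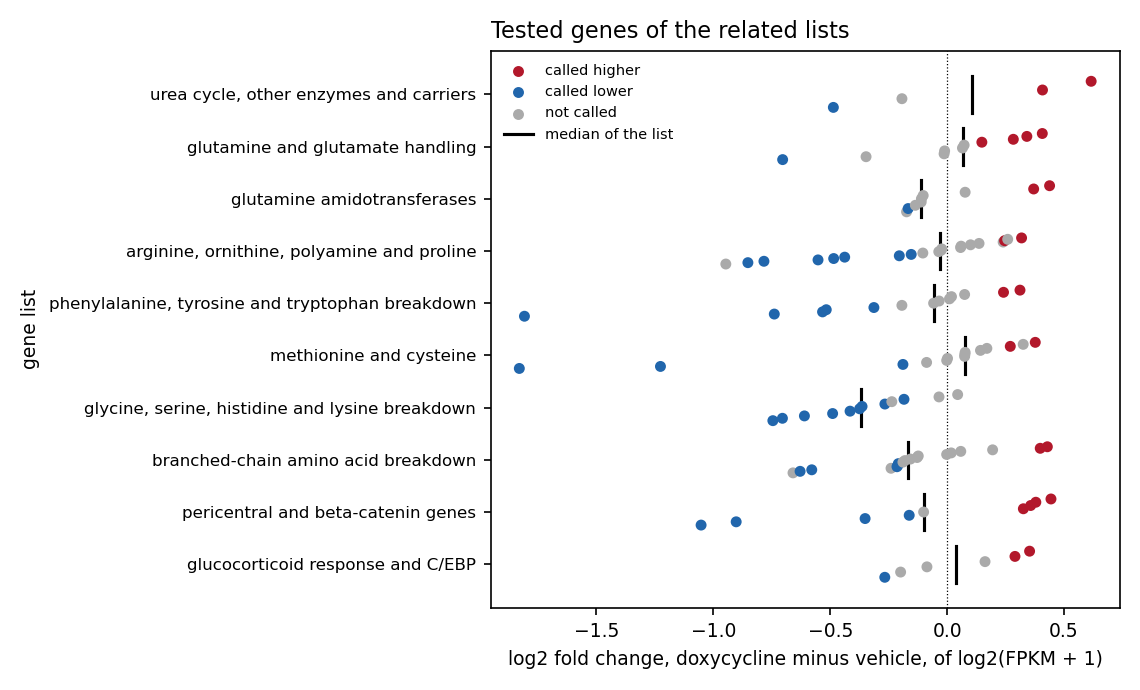
Log2 fold change, doxycycline minus vehicle, of log2(FPKM + 1) for the 115 tested genes of 10 related lists, 1 point per gene, with red called higher, blue called lower, grey not called, and a black bar at each list's median. The list of glycine, serine, histidine and lysine breakdown has 9 genes lower and none higher, where 13.6% of all tested genes were called lower. BHMT and DDC lie farthest to the left.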

How the data were processed

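Gene FPKM values of 6 libraries (3 doxycycline, 3 vehicle) were used as deposited by the authors. FastQC, cutadapt, HISAT2, StringTie and the build GRCh37 are named, per the submitters' processing notes, and versions, options and annotation are not given in the sources used here. Libraries were oligo(dT)-selected and strand-specific, per the labels' protocols. All entries are protein-coding genes, and no counts were used, so no counting interval or floor is given; only 30 of 68766 values were above 0 and below 0.05 FPKM, too few to recover read steps.

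Of 11461 entries, the one with the highest mean represented each symbol (11456 genes), and 987 genes with a mean under 1 FPKM were left out. The rest were fitted with limma 3.58.1 in R 4.3.3 (lmFit, eBayes with trend) on log2(FPKM + 1), with group as the only term, two-sided, with Benjamini-Hochberg adjustment over all genes tested; a log2 fold change on this scale understates the change of low genes. "Fold" is a ratio of mean FPKM. The fit was first tested on simulated data.

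The enzymes and lists were chosen with earlier results of these data known. Named besides the enzymes were, of each list, up to 4 called genes with the largest absolute log2 fold change, all tested genes of the urea cycle list, and the 3 nearest profiles of each called enzyme with an absolute log2 fold change of at least 0.5. Sequences come from the RefSeq table of promoters (GRCh38.p14), matched by symbol for 7 of the 8 genes. Alternatives were pseudocounts of 0.1 and 0.5, no filter or a minimum mean of 5 FPKM, median-ratio scaling, quantile normalization, limma without trend or with robust moderation, a call at an adjusted p below 0.01, summed entries where a symbol had several, each library left out in turn, and a block for the replicate number. Repeating these without the filter for CPS1 was chosen after seeing the data. Figures were drawn with matplotlib 3.10.9 in python 3.11.15, with numpy 2.4.6 and pandas 2.3.3.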

Additional observations from a re-analysis of the deposited data

How the results depend on the processing

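ASS1, ASL and ARG2 kept their direction and their call under all 16 alternatives, with log2 fold changes of -0.78 to -0.73, -0.23 to -0.19 and 0.23 to 0.30. GLUD1 kept its direction (-0.18 to -0.13 over left-out libraries). GLUL ranged from -0.48 to 0.10 over left-out libraries, with a single call, without vehicle replicate 1. Without the filter, CPS1 ranged from -0.0447 to 0.0108 over left-out libraries and was not called under any of 14 alternatives. The log2 difference of the ratio of GLUL to CPS1 ranged from -0.38 to 0.16 over left-out libraries. Of the enzymes, 2 to 4 were called lower and 1 higher over left-out libraries, and 2 and 1 at an adjusted p below 0.01, where 875 of all genes tested were called higher and 761 lower, against 1593 and 1419 at 0.05. Of 38 named genes of the lists, 31 kept direction and call under every alternative in which they were tested (those with a mean under 5 FPKM have no value at that minimum), 6 lost a call and 1 gained one, and none changed sign. Of 20 list counts, 11 stayed within 1.5-fold of the reported count; the list of glutamine amidotransferases moved most often, with 0 to 3 genes lower.

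The replicate number as a block left the members' calls as they were (1 higher, 3 lower; ASS1 adjusted p = 0.00172, ASL 0.0361, ARG2 0.0134, GLUD1 0.0342, GLUL 0.832) and gave 1231 genes higher and 1112 lower over all. It ended 4 calls among the named genes of the lists, those of CAD (adjusted p = 0.0889), GAMT (0.0766), ADO (0.107) and DUSP1 (0.0537). The deviations of same-numbered libraries correlated at 0.0150, -0.0321 and 0.0917, and only 1 of 3 doxycycline libraries correlated best with its own number, so the numbers were not taken to pair the libraries. The depth is unknown, and at the level of CPS1 and TAT the precision of FPKM cannot be stated.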

Other observations

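Some genes of the lists that lay under the filter on low values are given here, chosen after their values were seen. KLF9, a transcription factor induced by glucocorticoids and thyroid hormone, had 1.43, 1.19 and 1.10 FPKM in doxycycline libraries, against 0.0542, 0.0478 and 0.0129 FPKM in vehicle libraries. It reached the 0.5 FPKM needed for listing with doxycycline only. Of the same list, FKBP5 was tested and not called (limma adjusted p = 0.347). PER1, under the filter, went the other way, at 0.584 ± 0.0752 FPKM with doxycycline and 1.20 ± 0.104 FPKM with vehicle. TSC22D3, also under the filter, was at 0.662 ± 0.118 FPKM with doxycycline and 0.388 ± 0.143 FPKM with vehicle. TSC22D3 too reached the limit for listing with doxycycline only. AGXT, the liver peroxisomal aminotransferase that clears glyoxylate, had 0.279, 0.325 and 0.420 FPKM in doxycycline libraries, against 1.23, 1.25 and 1.12 FPKM in vehicle libraries, and reached that limit with vehicle only. As KLF9, TSC22D3 and AGXT were each listed through the group where they were high, no test of them is given.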
